A study of Mus musculus with 6 samples.

Results

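Fatty acid oxidation in mitochondria and peroxisomes was followed through 33 genes in AML12 cells, a mouse hepatocyte line, after knock-down of Uhrf2. The genes were chosen by symbol, and all 33 matched a gene in the table of 35709 genes. They comprised 19 genes of mitochondrial oxidation, 11 of peroxisomal oxidation, the cytosolic thioesterase gene Acot1 and the receptor genes Ppara and Ppard. In 32 of them the mean over the 6 libraries reached 1 FPKM (fragments scaled to transcript length and library size), the level required for testing. Ppara, at a mean of 0.242 FPKM, did not, and Ehhadh, at 1.04 FPKM, passed narrowly.

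The cells had received a small interfering RNA against Uhrf2 (siUhrf2, 3 libraries) or a control one (siCtrl, 3 libraries), each delivered with Lipofectamine RNAiMAX, and RNA was sequenced 72 h later. All groups share the AML12 line, which derives from hepatocytes of a mouse transgenic for human transforming growth factor alpha. The genotype labels call the siUhrf2 cells a knock-down and the siCtrl cells wild type. Whether the replicates were separate cultures is not stated, so the p-values below reflect variation among these libraries that may be technical. The sources used here do not give the siRNA sequences, and effects of a single siRNA on other transcripts were not tested.

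In the mitochondrial pathway, long-chain fatty acids enter as carnitine esters, and each turn of the spiral uses an acyl-CoA dehydrogenase, a hydratase, a hydroxyacyl-CoA dehydrogenase and a thiolase. Electrons from the first step pass through the electron transfer flavoprotein to the respiratory chain. Peroxisomes shorten very long and branched chains with oxidases that make hydrogen peroxide, and in liver many of these genes answer to the nuclear receptor PPAR alpha.

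Uhrf2 itself had 2942, 2805 and 2777 normalized counts in siUhrf2 libraries, against 8899, 9058 and 9018 in siCtrl libraries, so 31.6% of the siCtrl mean remained (log2 difference -1.66, limma adjusted p = 7.58e-11). Estimated depth lay between 44600000 and 49300000 reads in siUhrf2 and between 46400000 and 53100000 in siCtrl. The label hepatocyte was only partly borne out by markers: Hnf4a averaged 85.5 FPKM in siUhrf2 and 81.2 FPKM in siCtrl, while Alb averaged 0.471 FPKM in siUhrf2 and 0.751 FPKM in siCtrl, and Cyp2e1 0.0299 FPKM in siUhrf2 and 0.0237 FPKM in siCtrl. Of 8 hepatocyte markers 4 reached a mean of 1 FPKM, and among these Hnf4a alone was higher. Below that level, Alb and Tat were lower in every siUhrf2 library, with Tat at 0.198 FPKM in siUhrf2 and 0.593 FPKM in siCtrl. Apoa1 and Cyp2e1 overlapped, Cyp2e1 at 0 to 4 estimated reads per library. Hnf4a was called higher (limma adjusted p = 0.022). Serpina1a was called lower, at 0.914 FPKM in siUhrf2 and 2.07 FPKM in siCtrl (limma adjusted p = 0.00053). Apob averaged 39.2 FPKM in siUhrf2 and 44.7 FPKM in siCtrl, and Ttr 3.56 FPKM in siUhrf2 and 6.13 FPKM in siCtrl. Neither Apob nor Ttr passed. Summed markers of macrophages and leukocytes (2 of 6 at 1 FPKM, with Adgre1 and Clec4f at 0) lay at 2.92 to 3.79 FPKM in siUhrf2 and 7.46 to 9.18 FPKM in siCtrl. Nearly all of it is Cd68 (1.80 FPKM in siUhrf2, 4.24 FPKM in siCtrl) and Csf1r (1.42 FPKM in siUhrf2, 3.83 FPKM in siCtrl). Both were called lower (limma adjusted p = 7.71e-05 and 1.53e-06), while Ptprc and Lyz2 averaged only 0.113 and 0.0157 FPKM over all libraries. Cholangiocyte markers (3 of 4, with Epcam at 0) summed to 552 to 602 FPKM in siUhrf2 and 302 to 336 FPKM in siCtrl. That sum is mostly Krt19, at 537 FPKM in siUhrf2 and 273 FPKM in siCtrl, with Sox9 at 12.21 FPKM in siUhrf2 and 10.95 FPKM in siCtrl, whereas Krt7 was lower, at 32.9 FPKM in siUhrf2 and 37.2 FPKM in siCtrl (limma adjusted p = 0.0042). Endothelial, fibroblast and adipocyte markers had no member at a mean of 1 FPKM, and the part of any of these levels in the results below was not tested. In bulk RNA, fewer cells of a type and less RNA per cell cannot be told apart.

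The fatty acid oxidation genes were divided rather than moving together. Of the 32 tested, 11 rose, 6 fell and 15 did not pass (limma, adjusted p under 0.05 over all tested genes), a called share of 53.1%. Over all 11343 tested genes the called share was 61.0%, with 29.9% higher and 31.1% lower. The called share of the members, both directions together, was thus not above the background. Groups did not overlap in 12 members that were higher and 7 that were lower, where 32.5% and 34.1% of all tested genes did so (66.7% in either direction). The median log2 difference of the 32 genes was -0.0016, beside -0.0058 for all tested genes, and their median absolute difference was 0.14 beside 0.19. Member differences ran from -0.45 for Cpt1a to 0.64 for Acaa1b. The exact two-sided permutation test over libraries gave p = 0.10 for each gene without overlap, the smallest value that 3 against 3 libraries allow.

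**Figure D1:**
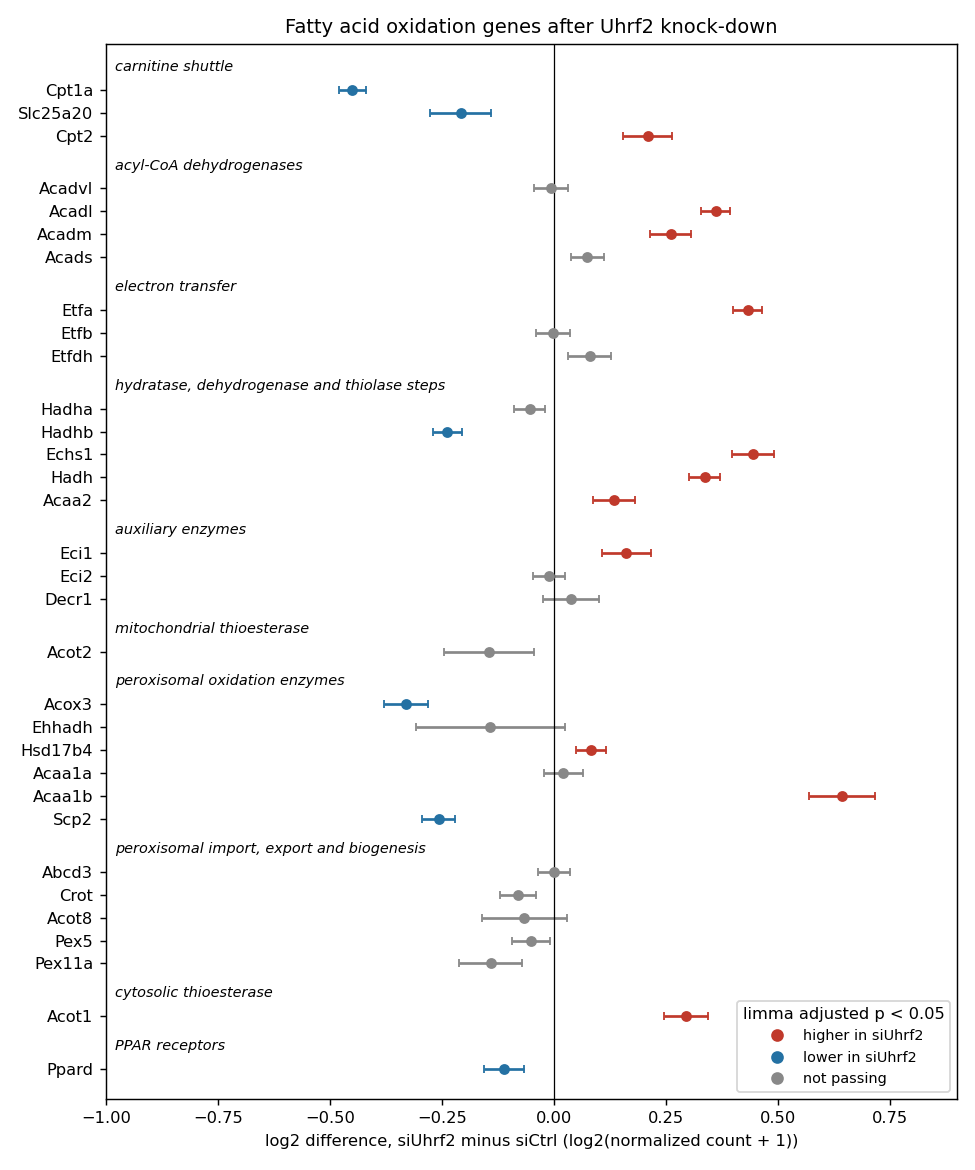
Log2 difference (siUhrf2 minus siCtrl, points) with its standard error (bars) for the 32 tested fatty acid oxidation genes, grouped by role; red marks genes higher, blue genes lower in siUhrf2 at a limma adjusted p under 0.05, grey genes that did not pass. Cpt1a lies farthest to the left at -0.45 and Acaa1b farthest to the right at 0.64, and none of the 5 genes of peroxisomal import, export and biogenesis was called.

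The mitochondrial and peroxisomal genes were set side by side as a description. Of the 19 mitochondrial genes 8 rose and 3 fell, 8 missed the threshold, and the median log2 difference was 0.07. Of the 11 peroxisomal genes 2 rose and 2 fell, 7 missed the threshold, and the median was -0.07. The called shares were 57.9% of the mitochondrial and 36.4% of the peroxisomal genes. Over all tested genes the share was 61.0% (29.9% higher, 31.1% lower), so with both directions together neither compartment was above the background. By direction, the 8 rises of 19 mitochondrial genes were a larger share than the 29.9%, and the 3 falls a smaller one than the 31.1%. The 2 rises and 2 falls of 11 peroxisomal genes were smaller shares than those of all tested genes. With lists this short, and members chosen with results known, the difference between the compartments was not tested.

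Summed over the 19 mitochondrial genes, the level was 1111, 1109 and 1106 FPKM in siUhrf2 libraries, against 1011, 1038 and 1050 FPKM in siCtrl libraries. The 11 peroxisomal genes summed to 387, 375 and 381 FPKM in siUhrf2 libraries, against 393, 389 and 404 FPKM in siCtrl libraries. Mitochondrial sums were thus higher in every siUhrf2 library and peroxisomal sums lower, the latter narrowly (387 against 389 FPKM at the closest). The mean of log2(normalized count + 1) weighs each gene alike. For the mitochondrial genes it was 11.36 to 11.38 in siUhrf2 libraries and 11.26 to 11.32 in siCtrl libraries. For the peroxisomal genes the groups overlapped, at 10.5082 to 10.525 in siUhrf2 libraries and 10.4721 to 10.5865 in siCtrl libraries. A few abundant genes make up the FPKM sums. Acadl alone differed by 42.9 FPKM and Etfa by 31.1 FPKM, within a mitochondrial difference of 75.7 FPKM, and Scp2 by -16.1 FPKM within a peroxisomal difference of -14.3 FPKM.

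Of the 3 carnitine shuttle genes 2 fell and 1 rose, where 31.1% of all tested genes were called lower and 29.9% higher. Cpt1a encodes the outer membrane carnitine palmitoyltransferase, the step at which entry is controlled and which malonyl-CoA inhibits. It had 4494, 4461 and 4494 normalized counts in siUhrf2 libraries, against 6070, 6153 and 6150 in siCtrl libraries. The groups lay far apart relative to their spread, with 73.2% of the siCtrl mean left (log2 difference -0.45, SE 0.030, limma adjusted p = 2.72e-07). Slc25a20, the carrier that exchanges acylcarnitine for carnitine across the inner membrane, had 814, 699 and 770 normalized counts in siUhrf2 libraries and 868, 839 and 928 in siCtrl libraries. Its fall (log2 difference -0.21, SE 0.068, limma adjusted p = 0.020) was lost without siUhrf2 replicate 2 (adjusted p = 0.0901) and without siCtrl replicate 3 (0.0904).

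Cpt2, the inner membrane transferase that re-forms acyl-CoA in the matrix, moved the other way. Its values were 1198, 1251 and 1354 normalized counts in siUhrf2 libraries and 1120, 1093 and 1072 in siCtrl libraries, a rise of 0.21 on the log2 scale (SE 0.055, limma adjusted p = 0.0060). The FPKM ratio of Cpt1a to Cpt2 was 2.34 ± 0.14 in siUhrf2 and 3.69 ± 0.11 in siCtrl (SD, n = 3 each; exact permutation p = 0.10, the smallest possible). This ratio and 4 others were chosen after the values were seen. All 5 had groups without overlap and the same p, which stays 0.10 after Benjamini-Hochberg adjustment over the 5.

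Cpt1a is a protein-coding gene at bases 3322334 to 3385733 of chromosome 19, plus strand, in GENCODE M21 (GRCm38). Its RefSeq promoter window, from 250 bases before to 50 after the start at chr19:3323051-3323350 (GRCm38.p6, plus strand), is shown because this gene fell most among the members; capitals mark its single copy of the core receptor motif AGGTCA, here on the opposite strand.
Cpt1a: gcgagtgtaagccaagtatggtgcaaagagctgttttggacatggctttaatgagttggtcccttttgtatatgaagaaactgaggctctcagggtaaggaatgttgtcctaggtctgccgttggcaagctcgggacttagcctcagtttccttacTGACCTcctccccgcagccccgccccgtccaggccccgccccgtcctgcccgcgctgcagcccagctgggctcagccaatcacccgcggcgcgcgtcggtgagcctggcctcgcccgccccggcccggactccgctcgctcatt
That motif occurs in 5 of 33 windows of the members and in 16.3% of all 32851 RefSeq windows, and the Cpt1a window holds 22 CpG dinucleotides.

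Acyl-CoA dehydrogenases, which take the first step of each turn, were higher for long and medium chains. Acadl, the long-chain enzyme and the member with the highest level, had 12258, 12795 and 12899 normalized counts in siUhrf2 libraries and 9723, 9893 and 9936 in siCtrl libraries. It rose 1.28-fold (log2 difference 0.36, SE 0.032, limma adjusted p = 2.32e-06), to 200.4 ± 3.4 FPKM in siUhrf2, against 157.5 ± 1.3 FPKM in siCtrl (SD, n = 3 each). Acadm, the medium-chain enzyme, rose by 0.26 on the log2 scale, with 2987, 3050 and 3075 normalized counts in siUhrf2 libraries and 2384, 2555 and 2678 in siCtrl libraries (limma adjusted p = 0.00038).

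The enzymes for the longest and shortest mitochondrial substrates did not pass. Acadvl, the membrane-bound very-long-chain enzyme, had 4028 ± 115 normalized counts in siUhrf2 and 4049 ± 136 in siCtrl (SD, n = 3 each; log2 difference -0.01, SE 0.038). Exons of Dvl2 on the opposite strand cover 42.9% of its exonic bases, and the sources used here do not state whether reads were counted by strand. The level of Acadvl is therefore uncertain, and Dvl2 itself was not called (log2 difference -0.09). In all, 10 members share exonic bases with a gene on the opposite strand, such as Acot8 with Snx21 (12.3% of its bases) and Acaa1b with Dlec1 (11.4%, mean 0.160 FPKM). Acads, for short chains, had 3495 ± 86.0 normalized counts in siUhrf2 and 3320 ± 82.7 in siCtrl (log2 difference 0.07, limma adjusted p = 0.096). Its 3 siUhrf2 libraries all lay above the siCtrl libraries, and quantile normalization brought it past the threshold (adjusted p = 0.026).

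The 2 subunit genes of the electron transfer flavoprotein, whose protein is a heterodimer that takes electrons from the dehydrogenases, parted. Etfa, the alpha subunit gene, had 4948, 5030 and 4983 normalized counts in siUhrf2 libraries and 3624, 3777 and 3686 in siCtrl libraries, a 1.35-fold rise (log2 difference 0.43, SE 0.032, limma adjusted p = 6.71e-07). Etfb, the beta subunit gene, had 2764, 2927 and 2840 normalized counts in siUhrf2 libraries and 2781, 2857 and 2907 in siCtrl libraries (log2 difference -0.0026, SE 0.038, adjusted p = 0.96). Every siUhrf2 library was above every siCtrl library for Etfa, while the ranges for Etfb coincided. The FPKM ratio of Etfa to Etfb was 1.18 ± 0.024 in siUhrf2 and 0.875 ± 0.019 in siCtrl (SD, n = 3 each; exact permutation p = 0.10).

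Etfb shares 49.9% of its 31-base words with transcripts of other genes, chiefly Gm45233 on the same strand, which averaged 0.110 FPKM. For Etfa that share is 10.9%, mostly with a processed pseudogene. Etfdh, the oxidoreductase that hands the electrons to ubiquinone, had 2608 ± 164 normalized counts in siUhrf2 and 2466 ± 67.0 in siCtrl (SD, n = 3 each; log2 difference 0.08, SE 0.048, limma adjusted p = 0.17).

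**Figure D2:**
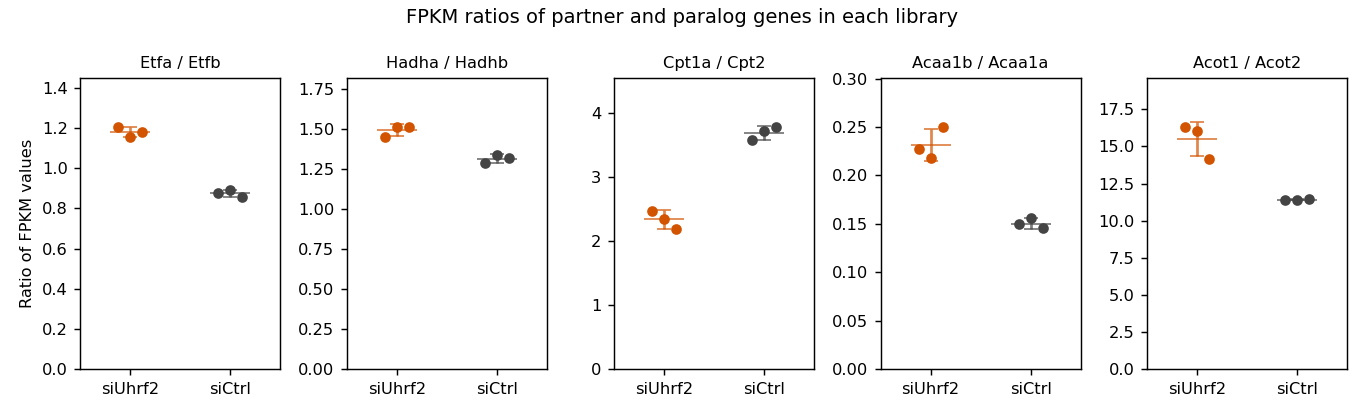
Ratio of FPKM values of 2 genes (y axes, from 0) in each siUhrf2 and siCtrl library (points; bars, mean ± SD, n = 3) for subunit partners, transferases and paralogs. The Etfa to Etfb ratio averages 1.18 in siUhrf2 and 0.875 in siCtrl, the Hadha to Hadhb ratio 1.49 in siUhrf2 and 1.32 in siCtrl, and in all 5 panels the groups are separate.

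In the later steps of the spiral, the soluble short-chain enzymes rose while the trifunctional protein did not. Echs1, the short-chain enoyl-CoA hydratase, had 5262, 5878 and 5607 normalized counts in siUhrf2 libraries and 3893, 4282 and 4126 in siCtrl libraries, a 1.36-fold rise (log2 difference 0.44, SE 0.047, limma adjusted p = 8.78e-06). Hadh, the hydroxyacyl-CoA dehydrogenase of short and medium chains, had 4078, 4093 and 4139 normalized counts in siUhrf2 libraries, against 3144, 3341 and 3272 in siCtrl libraries. It rose 1.26-fold (limma adjusted p = 8.28e-06). Both genes had groups that lay apart in all libraries. Paox, which overlaps 1.71% of the exonic bases of Echs1 on the opposite strand, was itself higher by 0.66 on the log2 scale.

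Acaa2, the thiolase of the mitochondrial matrix, rose slightly (1.10-fold), with 1834, 1741 and 1692 normalized counts in siUhrf2 libraries and 1550, 1600 and 1650 in siCtrl libraries (limma adjusted p = 0.027). That call was lost without siUhrf2 replicate 1 (adjusted p = 0.083) or 2 (0.055), without siCtrl replicate 1 (0.081) or 2 (0.060), and with no filter on low genes (0.053).

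Hadha and Hadhb encode the alpha and beta subunits of the mitochondrial trifunctional protein, which carries out the last 3 steps for long chains. Hadha had 5807, 5874 and 5913 normalized counts in siUhrf2 libraries and 5848, 6218 and 6208 in siCtrl libraries, and these ranges overlap (log2 difference -0.05, SE 0.034, limma adjusted p = 0.19). Hadhb had 3734, 3618 and 3642 normalized counts in siUhrf2 libraries and 4243, 4329 and 4396 in siCtrl libraries, all siUhrf2 values lying lower (log2 difference -0.24, SE 0.033, limma adjusted p = 7.62e-05). The FPKM ratio of Hadha to Hadhb was 1.49 ± 0.037 in siUhrf2 and 1.32 ± 0.027 in siCtrl (SD, n = 3 each; exact permutation p = 0.10). Hadhb shares 23.7% of its 31-base words with other transcripts, mostly the pseudogene Gm13910.

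These genes are divergent neighbours on chromosome 5, with Hadha on the minus strand from 30118304 to 30155162 and Hadhb on the plus strand from 30155248 to 30184593 (GRCm38, GENCODE M21). Their RefSeq start sites lie 273 bases apart, and 228 bases belong to the promoter windows of both. The Hadhb window at chr5:30155003-30155302 (GRCm38.p6, plus strand) is shown because the pair shares it although only Hadhb was called; capitals mark the bases that also lie in the Hadha window.
Hadhb: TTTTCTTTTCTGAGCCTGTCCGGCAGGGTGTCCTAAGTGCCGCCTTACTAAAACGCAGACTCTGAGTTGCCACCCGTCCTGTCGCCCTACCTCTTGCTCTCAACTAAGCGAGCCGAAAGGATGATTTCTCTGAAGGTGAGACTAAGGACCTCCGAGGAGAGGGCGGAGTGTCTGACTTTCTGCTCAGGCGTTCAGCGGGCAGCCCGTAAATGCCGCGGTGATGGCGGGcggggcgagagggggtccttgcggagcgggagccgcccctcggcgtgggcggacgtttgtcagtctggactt
The window holds 24 CpG dinucleotides and no copy of the motif AGGTCA.

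Auxiliary enzymes, which prepare double bonds of unsaturated chains for the spiral, changed little. Eci1, an enoyl-CoA isomerase, had 1397, 1504 and 1402 normalized counts in siUhrf2 libraries and 1207, 1297 and 1345 in siCtrl libraries, a 1.12-fold rise (limma adjusted p = 0.022). It was lost without siUhrf2 replicate 2 (adjusted p = 0.096) and without siCtrl replicate 1 (0.081). Eci2, an isomerase found in mitochondria and peroxisomes, had 2896 ± 55.7 normalized counts in siUhrf2 and 2919 ± 34.9 in siCtrl (SD, n = 3 each; adjusted p = 0.80). Eci2 was counted as mitochondrial. Because it was not called, counting it as peroxisomal leaves the numbers of genes called higher or lower unchanged. Decr1, the dienoyl-CoA reductase, had 1603 ± 93.0 in siUhrf2 and 1562 ± 119 in siCtrl (adjusted p = 0.61).

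**Figure D3:**
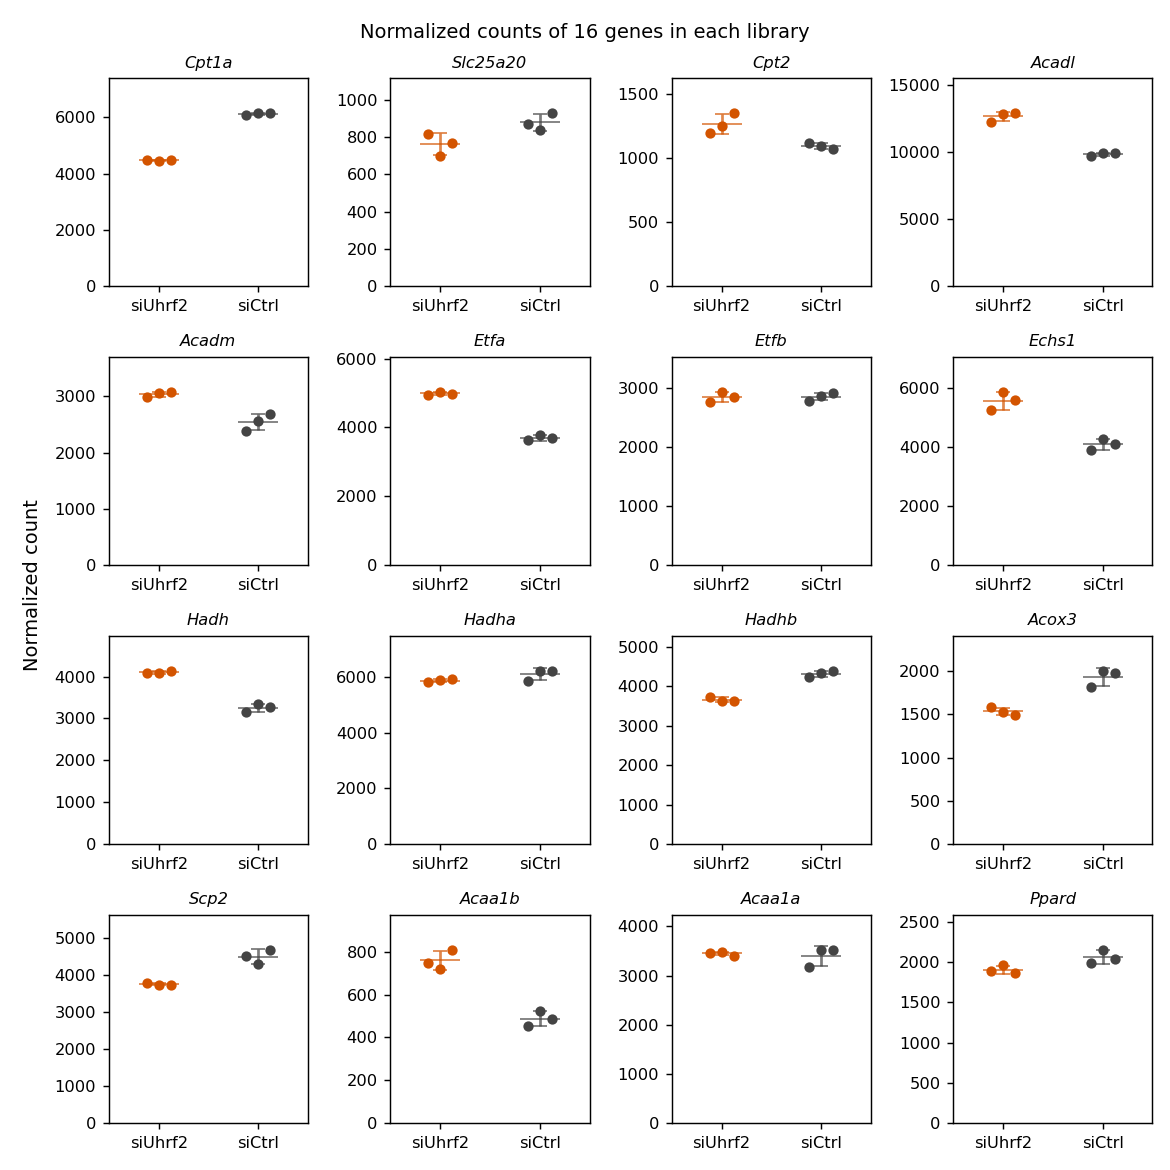
Normalized counts (y axes, from 0) of 16 genes in each siUhrf2 and siCtrl library (points; bars, mean ± SD, n = 3). Cpt1a, Hadhb, Acox3 and Scp2 are lower in all siUhrf2 libraries, Acadl, Etfa, Echs1, Hadh and Acaa1b are higher in all of them, and the groups of Etfb, Hadha and Acaa1a overlap.

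Among the peroxisomal enzymes, changes went in both directions at successive steps. Acox3, an acyl-CoA oxidase of branched chains, had 1581, 1528 and 1497 normalized counts in siUhrf2 libraries and 1814, 2004 and 1974 in siCtrl libraries. It fell in all libraries (log2 difference -0.33, SE 0.049, limma adjusted p = 0.00012).

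For the hydratase and dehydrogenase steps peroxisomes use 2 multifunctional enzymes. Ehhadh, the L-bifunctional enzyme and a strongly inducible PPAR alpha target in mouse liver, was close to the detection filter, with 135, 164 and 131 normalized counts in siUhrf2 libraries and 121, 172 and 187 in siCtrl libraries. The ranges overlapped (log2 difference -0.14, SE 0.17, limma adjusted p = 0.48), at 116 to 202 estimated reads per library. Its difference was -0.33 without siCtrl replicate 1 (adjusted p = 0.069) and -0.017 without siCtrl replicate 3 (0.94), and leaving out any other library gave -0.24 to -0.081. Hsd17b4, the D-bifunctional enzyme, had 5715, 5645 and 5825 normalized counts in siUhrf2 libraries and 5547, 5242 and 5434 in siCtrl libraries. Its 1.06-fold rise barely passed (log2 difference 0.08, SE 0.034, limma adjusted p = 0.048). That call was lost without siUhrf2 replicates 1, 2 or 3 (adjusted p = 0.054, 0.068 and 0.16), without siCtrl replicates 2 or 3 (0.18 and 0.10) and under 4 further alternatives (0.087 to 0.11).

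The thiolase step showed the largest rise of any member. Acaa1b had 748, 721 and 810 normalized counts in siUhrf2 libraries and 451, 521 and 487 in siCtrl libraries, a 1.56-fold rise (log2 difference 0.64, SE 0.074, limma adjusted p = 1.67e-05). Its more abundant paralog Acaa1a had 3466, 3480 and 3406 normalized counts in siUhrf2 libraries and 3172, 3517 and 3528 in siCtrl libraries (log2 difference 0.02, SE 0.044, limma adjusted p = 0.71). Per length, Acaa1b stood at 0.232 ± 0.017 of the Acaa1a FPKM in siUhrf2 and 0.150 ± 0.0052 in siCtrl (SD, n = 3 each; exact permutation p = 0.10).

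Reads of the 2 thiolases are hard to separate. Acaa1b shares 50.05% of its 31-base words with other transcripts, mostly those of Acaa1a, and Acaa1a shares 23.4%. Added together, the pair had 4214, 4201 and 4216 normalized counts in siUhrf2 libraries and 3623, 4038 and 4015 in siCtrl libraries, a log2 ratio of means of 0.11. The sum was therefore higher in every siUhrf2 library, with siCtrl replicate 1 farthest below. Exons of Myd88 on the opposite strand cover 6.57% of the exonic bases of Acaa1a, and Myd88 was called lower (log2 difference -0.31, limma adjusted p = 0.00090). The part of this overlap in the sum was not tested.

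Both genes lie on chromosome 9, Acaa1b on the minus strand from 119148023 to 119157093 and Acaa1a on the plus strand from 119339676 to 119350299 (GRCm38, GENCODE M21). Their RefSeq promoter windows, at chr9:119157044-119157343 (GRCm38.p6, minus strand) and chr9:119341044-119341343 (GRCm38.p6, plus strand), are shown because the coding copies are alike and their measured changes were not; capitals mark CpG dinucleotides.
Acaa1b: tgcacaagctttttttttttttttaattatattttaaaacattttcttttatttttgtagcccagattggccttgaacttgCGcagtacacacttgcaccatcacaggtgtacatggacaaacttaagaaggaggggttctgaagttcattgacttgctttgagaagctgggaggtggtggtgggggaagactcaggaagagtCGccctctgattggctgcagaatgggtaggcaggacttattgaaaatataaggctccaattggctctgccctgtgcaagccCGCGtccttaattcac
Acaa1a: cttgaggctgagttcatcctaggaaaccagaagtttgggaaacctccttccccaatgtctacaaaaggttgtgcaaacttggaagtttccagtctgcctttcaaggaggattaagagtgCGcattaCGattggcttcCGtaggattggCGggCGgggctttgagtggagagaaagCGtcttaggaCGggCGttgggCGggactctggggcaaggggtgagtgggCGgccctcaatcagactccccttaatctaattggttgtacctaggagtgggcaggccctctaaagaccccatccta
A global alignment of these windows was 47.5% identical, beside 46.8% for the windows of Acot1 and Acot2, and unrelated windows were not aligned. Acaa1b has 4 CpG dinucleotides and Acaa1a 10, where the 33 windows of the members had a median of 17 and all RefSeq windows a median of 7.

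Scp2, whose longer product is a thiolase of branched chains and whose shorter one is a sterol carrier protein, fell. It had 3798, 3749 and 3747 normalized counts in siUhrf2 libraries and 4512, 4304 and 4697 in siCtrl libraries (log2 difference -0.26, SE 0.038, limma adjusted p = 0.00011). The groups did not overlap. Gene-level values do not separate the 2 products, and Scp2 shares 33.4% of its 31-base words with the pseudogene Scp2-ps2.

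None of the 5 genes of peroxisomal import, export and biogenesis was called. All 5 log2 differences were below 0 in the main fit, but that of Abcd3 was only -0.00063 (SE 0.036). Over the alternatives Abcd3 ranged from -0.026 to 0.018 and Acot8 from -0.12 to 0.0087, so the shared sign was not stable. Abcd3, the transporter that brings acyl-CoA into the peroxisome, had 4040 ± 93.0 normalized counts in siUhrf2 and 4042 ± 127 in siCtrl (SD, n = 3 each; limma adjusted p = 0.99). Crot, which makes carnitine esters of shortened chains for export, had 3220 ± 104 in siUhrf2 and 3406 ± 120 in siCtrl (adjusted p = 0.098). Acot8, a peroxisomal thioesterase, had 319 ± 24.4 in siUhrf2 and 334 ± 30.9 in siCtrl (adjusted p = 0.57).

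Pex5, the receptor that imports matrix enzymes, had 2885 ± 115 normalized counts in siUhrf2 and 2990 ± 114 in siCtrl (SD, n = 3 each; limma adjusted p = 0.31). Pex11a, a division factor inducible by PPAR alpha, had 445, 412 and 451 in siUhrf2 libraries and 471, 477 and 495 in siCtrl libraries. Its groups did not overlap, yet it missed the threshold (log2 difference -0.14, SE 0.071, limma adjusted p = 0.10). It passed with log2(FPKM + 1) (adjusted p = 0.046) and without the variance trend (0.038).

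Thioesterases release free acids from acyl-CoA. Acot1, the cytosolic form, had 2397, 2352 and 2338 normalized counts in siUhrf2 libraries and 2050, 1804 and 1932 in siCtrl libraries, a 1.23-fold rise (log2 difference 0.29, SE 0.049, limma adjusted p = 0.00028). Acot2, its mitochondrial paralog, had 204, 204 and 230 normalized counts in siUhrf2 libraries and 251, 220 and 235 in siCtrl libraries (log2 difference -0.15, SE 0.10, adjusted p = 0.23). The ranges of Acot2 overlapped. Acot1 shares 22.8% and Acot2 37.8% of their 31-base words with other transcripts, mostly each other's, and their sum was 2601, 2556 and 2567 in siUhrf2 libraries, against 2301, 2024 and 2167 in siCtrl libraries.

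The receptors that drive these genes in liver were unevenly expressed. Ppara, the main hepatic regulator of fatty acid oxidation, was barely detected, with 22.9, 6.10 and 13.1 normalized counts in siUhrf2 libraries and 24.1, 15.7 and 25.1 in siCtrl libraries. These stem from 6 to 27 estimated reads per library, overlap, and were not tested. Ppard, the broadly expressed receptor PPAR delta, had 1895, 1962 and 1865 normalized counts in siUhrf2 libraries and 1992, 2156 and 2041 in siCtrl libraries. Its small fall (log2 difference -0.11, SE 0.044, limma adjusted p = 0.045) was lost without siUhrf2 replicates 1 or 3 (adjusted p = 0.074 and 0.14), without siCtrl replicates 2 or 3 (0.17 and 0.082), and under 3 of 4 other scalings (0.0502 to 0.068). With no filter on low genes or no variance trend it was lost as well (0.092 and 0.062).

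RefSeq promoter windows were available for 30 of the 33 genes, 33 windows in all. The PPAR element was searched on both strands as AGGTCA, any base, then AGGTCA again. None of the 33 windows held it exactly or with 1 mismatch, where 0.0396% and 0.554% of all windows did. With up to 2 mismatches it was found in 3 windows of the members and in 3.86% of all windows. The 3 sites, all in mitochondrial genes, are shown in capitals with 8 bases on either side, read in the direction of the element.
Echs1: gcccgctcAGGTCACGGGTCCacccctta
Etfa: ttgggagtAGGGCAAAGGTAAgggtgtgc
Slc25a20: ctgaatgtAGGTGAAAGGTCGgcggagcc
They start 83 and 77 bases before the start sites of Echs1 and Etfa and 6 bases after that of Slc25a20, at chr7:140116492-140116504, chr9:55512308-55512320 and chr9:108662142-108662154 (GRCm38.p6). Of the 3 genes Echs1 and Etfa rose and Slc25a20 fell. A letter match is a description of the sequence only.

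Genes around the pathway were counted from lists written with earlier results of these data known, and each list's called share stands beside the 61.0% of all tested genes (29.9% higher, 31.1% lower). Of 18 genes of fatty acid uptake and activation 12 were tested, of which 7 rose, 2 fell and 3 did not pass (75% called, median log2 difference 0.21). Acsl3, an acyl-CoA synthetase of the endoplasmic reticulum and lipid droplets, rose most on the list, with 12162, 12322 and 12150 normalized counts in siUhrf2 libraries and 6015, 6046 and 6239 in siCtrl libraries (log2 difference 1.001, SE 0.030, limma adjusted p = 1.01e-09). Acot7, a cytosolic thioesterase, rose 1.31-fold. The 2 that fell were the fatty acid transporter Slc27a4 (log2 difference -0.38) and the arachidonate-preferring synthetase Acsl4 (-0.25). Acsl1, the main synthetase of hepatocyte oxidation, missed the threshold (log2 difference 0.08), and Fabp1, the liver fatty acid binding protein, was listed at 0 in all libraries.

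Of 20 other mitochondrial genes, which include branched-chain and propionate enzymes and Mcat of mitochondrial fatty acid synthesis, 19 were tested, with 9 rises, 3 falls and 7 not passing (63.2% called, median 0.10). Hibch, of valine breakdown, and Hsd17b10, of isoleucine and fatty acid oxidation, rose by 0.38 and 0.33 on the log2 scale. Acadsb, Acad11 and the malonyl-CoA decarboxylase Mlycd were the falls, at -0.38, -0.29 and -0.26. Cpt1b, the muscle-type carnitine transferase, averaged 5.26 FPKM and did not pass.

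Of 21 other peroxisomal genes 15 were tested, and 5 rose, 5 fell and 5 did not pass (66.7% called, median 0.01). Acox2, the oxidase of bile acid intermediates, rose 2.26-fold, with 1166, 1350 and 1363 normalized counts in siUhrf2 libraries and 464, 634 and 626 in siCtrl libraries (limma adjusted p = 9.77e-05). Hacl1, a lyase of alpha-oxidation, and Pecr, a trans-enoyl-CoA reductase, rose by 0.72 and 0.45 on the log2 scale, and the ether lipid genes Far1 and Gnpat by 0.31 and 0.12. The call of Gnpat was lost without siCtrl replicate 3 (limma adjusted p = 0.056). Cat, the catalase that removes the oxidases' hydrogen peroxide, fell by 0.68 on the log2 scale, and the acyl-CoA binding gene Acbd5, the racemase gene Amacr and the dienoyl-CoA isomerase gene Ech1 fell by 0.37, 0.32 and 0.15.

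Peroxins, the proteins that build the organelle, were split. Of 14 tested, 3 rose, 4 fell and 7 did not pass (50% called, median 0.02). Pex6, an ATPase that recycles the import receptor, rose 1.55-fold (limma adjusted p = 7.96e-07), and its membrane anchor Pex26 fell (log2 difference -0.24). Pex3 and Pex14 (0.16 each) rose and Pex16 (-0.23) fell. The calls of Pex3, Pex14 and Pex16 were lost under 3, 3 and 5 of 17 alternatives, with adjusted p reaching 0.073, 0.081 and 0.12.

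Ketone body genes were few, with 4 of 6 tested and 50% of these called. Acat1, the mitochondrial acetoacetyl-CoA thiolase, rose 1.46-fold and Oxct1, which uses ketone bodies outside the liver, fell (log2 difference -0.33).

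Of 18 other PPAR alpha targets only 7 reached the level for testing, and 3 rose, 3 fell and 1 did not pass (85.7% called). Cyp4a12a, a fatty acid omega-hydroxylase with close paralogs, had 122, 59.7 and 48.9 normalized counts in siUhrf2 libraries and 2124, 1418 and 1686 in siCtrl libraries (log2 difference -4.58, SE 0.40, limma adjusted p = 0.00059). Angptl4 and the lipid droplet gene Plin2 fell by 0.21 and 0.09 on the log2 scale. Plin2 lost its call under 8 of 17 alternatives (adjusted p up to 0.14). Txnip, a regulator of thioredoxin, Ucp2, a mitochondrial carrier, and Vnn1, a pantetheinase, rose 1.80-fold, 1.56-fold and 1.55-fold.

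Among partners and coregulators of the PPARs 19 of 22 were tested, and 4 rose, 4 fell and 11 did not pass (42.1% called, median 0.0083). Ppargc1a, a coactivator of mitochondrial and oxidation genes, had 1547, 1141 and 1251 normalized counts in siUhrf2 libraries and 1936, 1679 and 1851 in siCtrl libraries, lower in all (log2 difference -0.48, SE 0.11, limma adjusted p = 0.0090). Lpin1, a phosphatidate phosphatase that also serves as a coactivator, rose 1.58-fold, while Lpin2 and Esrra, which encodes the receptor ERR alpha, fell (log2 differences -0.25 and -0.14). Med1 and Sirt1 rose by 0.19 and 0.22, Ncoa2 by 0.09, and Ep300 fell by 0.12 on the log2 scale. The calls of Sirt1, Ncoa2 and Ep300 were lost under 4, 11 and 7 of 17 alternatives, with adjusted p reaching 0.10, 0.14 and 0.15. Rxra and Rxrb, which encode partners of the PPARs, missed the threshold in opposite directions. Their log2 differences were -0.08 and 0.11 (limma adjusted p = 0.098 and 0.058).

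**Figure D4:**
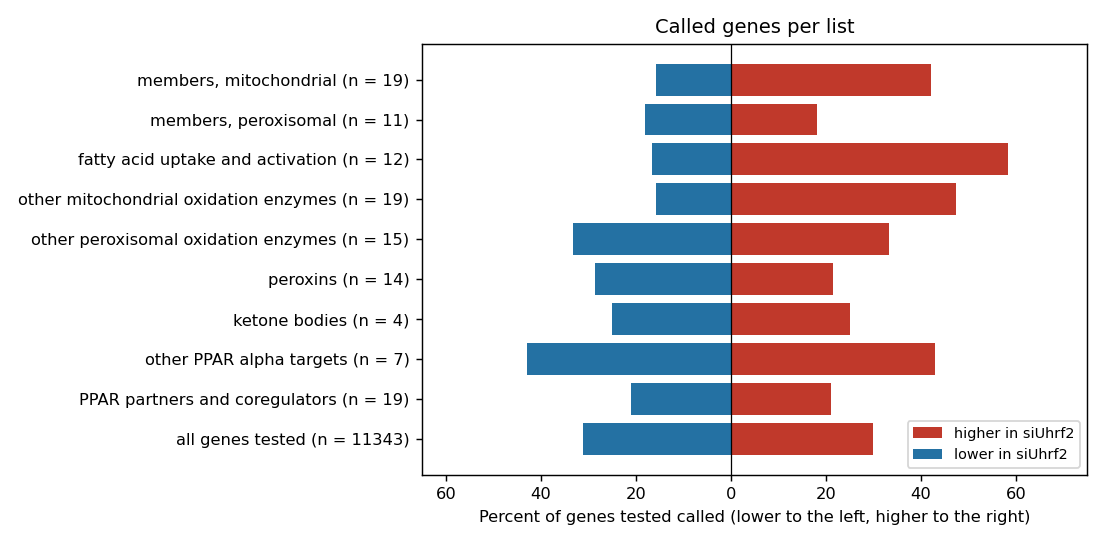
Percent of tested genes called higher (red, to the right) or lower (blue, to the left) in siUhrf2 for the mitochondrial and peroxisomal members, the 7 surrounding lists and all 11343 tested genes. Of the 19 mitochondrial members 8 were higher and 3 lower, of the 11 peroxisomal members 2 were higher and 2 lower, and over all tested genes 29.9% were higher and 31.1% lower.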

How the data were processed

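RNA-seq of 6 samples of AML12 cells was used, grouped by the sample titles (3 siUhrf2, 3 siCtrl), with 0 sample columns left unused. For each gene the authors deposited, per the file headers, a normalized count (treated as a signal, never below 0) and FPKM for every library. Tools named in the submitters' processing notes are kallisto 0.44.0 and edgeR, with the build GRCm38.p6 and no role for any. The sources used here do not give how transcripts were summed to genes, strand or filters. Dividing by the most frequent low value gave 44600000 to 53100000 estimated reads per library; 62.8% to 64.7% of values above 0 were whole within 0.01 read, so no count test was run. Genes with few reads have larger counting error. Replicate pairs differed beyond sampling noise (chi-square divided by its degrees of freedom was 3.21 to 12.7), and all 6 libraries entered separately. Pairs with replicate 1 gave 11.3 and 12.7 in siUhrf2 and 7.95 and 11.2 in siCtrl. The pair of replicates 2 and 3 gave 3.21 in siUhrf2 and 4.38 in siCtrl, so replicate 1 stood apart in both groups.

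Identifiers were matched to GENCODE M21 (35574 of 35709 had a symbol). In limma 3.58.1 (R 4.3.3, statmod 1.5.0), robust moderated tests with a variance trend were run on log2(normalized count + 1) for the 11343 genes that averaged 1 FPKM or more. The deposited normalized counts gave these log2 values, and the pseudocount 1 understates changes of low genes. Adjusted p is Benjamini-Hochberg over all of these. The fit was tried on simulated data in which 200 of 11343 genes were changed, with the same dispersion for all genes. Of 50 genes per fold, 47 were recovered at 1.25-fold and 50 each at 1.5-fold, 2-fold and 3-fold. Among 212 calls 15 were false (7.1%). In the real data 61.0% of tested genes were called, so the simulation does not give their share of false calls. Members and lists were chosen with earlier results of these data known. Named were Uhrf2, every member, and up to 3 called genes per surrounding list with the largest difference at a mean of at least 5 FPKM. Genes behind counts of 5 or fewer were also named, chosen after their values were seen, as were Acsl1, Fabp1, Cpt1b, Rxra and Rxrb. Shared 31-base words (kallisto's default length) were counted in GENCODE M21 transcripts on both strands, and promoter windows came from RefSeq (GRCm38.p6). Planned protein features were not analysed here, and some genes of the surrounding lists are counted but not reported here. Alternatives covered scaling, pseudocount, filters, FPKM, variance model, threshold, replicate block, leaving out each library and counting Eci2 as peroxisomal.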

Additional observations from a re-analysis of the deposited data

How the results depend on the processing

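Each of the 32 tested members was refitted under up to 18 alternatives. Of the resulting 574 values 539 stayed on their side of the threshold, 32 lost a call, 3 gained one and 0 reversed a called direction. A set of 12 of the 17 called members kept the call throughout, and the exceptions were Slc25a20, Acaa2, Eci1, Hsd17b4 and Ppard, whose adjusted p-values are given with them. The number of called members was 12 (adjusted p under 0.01) to 17, and 13 to 15 when 1 library was left out. The 4 other scalings gave medians of 0.06 to 0.10 for mitochondrial and -0.08 to -0.05 for peroxisomal members, and the shares of higher calls over all genes stayed between 46.3% and 52.2%. Peroxisomal genes called higher numbered 1 in place of 2 under total-sum scaling, no filter, log2(FPKM + 1), no variance trend, adjusted p under 0.01 and without members that have a close paralog, and 1 to 2 when 1 library was left out. Hsd17b4 is the gene lost, except without paralogs, where Acaa1b was left out. The peroxisomal median was -0.086 to -0.028 when 1 library was left out, with -0.028 without siCtrl replicate 2. Under the 11 alternatives of other kinds, which include Eci2 counted as peroxisomal, it was -0.081 to -0.059. The mitochondrial median under these was 0.060 to 0.13. Leaving out the 8 members that share at least 20% of their 31-base words with other genes, chosen after seeing the data, gave a mitochondrial median of 0.13 and peroxisomal counts of 1 higher and 1 lower, since Acaa1b and Scp2 were among them. The replicate block called 7248 of all genes in place of 6919 and the same number of members, 17. Deviations of same-numbered samples correlated at 0.18, 0.24 and 0.066, and those of differently numbered samples at -0.22 to 0.017. Each sample thus correlated best with its own number. The titles give replicate numbers without saying that they pair the samples, so the main fit left them out. Whether the samples are paired stays undecided. Ppara, at 6 to 27 estimated reads per library, was not tested.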
